A study of Canis lupus familiaris with 8 samples.

Results

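Glutathione, thioredoxin and related enzymes that remove or produce oxidants were examined in the hearts of diabetic and control dogs. The genes were chosen by symbol: the glutathione peroxidases, transferases, reductase and synthesis enzymes, superoxide dismutases, catalase, peroxiredoxins, thioredoxins, glutaredoxins, methionine sulfoxide reductases, heme oxygenases, quinone reductases, ferritin and metallothioneins, with the NADPH oxidases, xanthine dehydrogenase and monoamine oxidases. They took 97 of the 23836 probe sets tested on a canine oligonucleotide array, for 54 genes, counting only probe sets listed with a single gene symbol. By role, 73 probe sets of 41 genes belonged to enzymes and proteins that remove oxidants or repair their damage, and 13 probe sets of 9 genes to enzymes that produce oxidants or their subunits. Another 11 probe sets of 4 genes were taken in by name: the thioredoxin inhibitor TXNIP and the thioredoxin-like TXNL1, TXNL4A and TXNDC12. GPX4, GCLC, HMOX1, SOD3 and CYBA were not analysed here.

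Transcripts were compared in 4 dogs with diabetes mellitus (DM dogs 0292, 0294, 1087 and 1111) and 4 control dogs (D5, D6, D7 and D8), with 1 array a dog. DM was induced with intravenous alloxan, a toxin of pancreatic beta cells, at 40 to 60 mg/kg, and the hearts were taken after 4 weeks. The methods state that some dogs had a repeat injection and that DM dogs entered the study by their fasting glucose. The control dogs received no alloxan. Both groups were male mongrels of 23 to 27 kg by the labels, all chronically instrumented. Ages were not given in the sources used here. The labels call the samples cardiac tissue and the methods place them in the left ventricle.

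Glutathione is a small thiol made by glutamate-cysteine ligase and glutathione synthetase. Glutathione peroxidases spend it to reduce hydrogen peroxide and lipid peroxides, and glutathione reductase regenerates it with NADPH. Peroxiredoxins do the same job with electrons from thioredoxin, which thioredoxin reductase recharges from NADPH, and superoxide dismutases and catalase need no thiol. The heart, rich in mitochondria, relies on the mitochondrial members PRDX3, PRDX5, TXN2, TXNRD2 and SOD2, while superoxide is also made on purpose by the NADPH oxidase whose catalytic subunit is CYBB (gp91).

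Levels are given as log2 of the normalized signal plus 16, always in the dog order named above, so that 1 unit is a doubling of the signal plus 16. Probes differ in brightness, so levels are compared between dogs and not between genes. Where a gene had several probe sets, it was read from the one with the highest mean level, and fold changes are DM over control on the same log2 scale.

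The DM arrays differed from the control arrays in more than these genes. The manufacturer's 18 hybridization control probe sets, which report RNA added to every sample, averaged 16.32 ± 1.05 in DM dogs and 13.88 ± 1.27 in control dogs (SD, n = 4 each; p = 0.0571 by an exact two-sided permutation test), with D8 at 15.77 and the other control dogs at 13.09 to 13.36. These values, and those of the actin and GAPDH control probe sets below, are log2 of the deposited signal, before quantile normalization and with nothing added. The mean correlation of an array with the rest of its own group was 0.550 to 0.655 in DM dogs and 0.774 to 0.863 in control dogs, D8 being the lowest. The actin control probe sets, whose 3′ minus 5′ difference widens as RNA degrades, gave 3.59 to 7.71 log2 units in DM dogs, against 1.35 to 3.04 in D5, D6 and D7 and 7.79 in D8 (exact permutation p = 0.229), and those of GAPDH 0.37 to 3.90 in DM dogs and 2.17 to 6.08 in control dogs, D8 highest (exact permutation p = 0.171). The 9 measured genes of a 13-gene cardiomyocyte list averaged 11.77 ± 0.74 in DM dogs and 14.72 ± 1.01 in control dogs (SD, n = 4 each; p = 0.0286 by the same exact permutation test, the smallest that 4 against 4 can give). The dogs spanned 10.97 to 12.69 in the DM group and 13.27 to 15.59 in the control group, and each of the 9 genes was lower in DM dogs, 7 of them without overlap. The 11 measured macrophage genes averaged 8.24 ± 0.86 in DM dogs and 8.04 ± 0.60 in control dogs (exact permutation p = 0.6), and the neutrophil, endothelial, fibroblast, smooth muscle and adipocyte lists, with 2 to 5 measured genes each, gave p of 0.0571 to 0.714 by the same exact test. In whole tissue, fewer cells of a type and less RNA per cell cannot be told apart, and the part of these differences in the results below was not tested.

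The enzymes that remove oxidants had lower values in DM hearts more often than higher ones, most clearly the peroxiredoxins, and the producing enzymes did not share this direction. No member passed an adjusted p of 0.05 (limma with Benjamini-Hochberg adjustment over all probe sets), and the smallest adjusted p was 0.0613, for the second probe set of PRDX5. Over all probe sets that test called 0 higher (0%) and 4 lower (0.0168%). At an unadjusted p under 0.05 limma had 2 members higher and 20 lower, where all probe sets gave 7.8% higher and 8.91% lower. By the criteria of the methods, a nominal P of at most 0.01 and at least a 2-fold change, 0 members were higher and 8 were lower, against 2.45% and 2.52% of all probe sets, and after Benjamini-Hochberg adjustment the methods' t-test called 0 members in either direction, against 0.042% and 0.0503% of all probe sets. The counts lean on single dogs: 6 lower members passed the adjusted p of limma without 1111 and 3 without D8, where 1.49% and 0.906% of all probe sets passed lower. The criteria of the methods held for 2 lower members without D5, D6 or D7, against 1.17% to 1.31% of all probe sets. The adjusted p was also passed by 6 lower members with median centring, 6 with an offset of 64 and 9 with an intensity trend, against 0.927%, 1.31% and 2.21% of all probe sets. Without both D8 and 0292, a choice made after seeing the data, 7 lower members passed it and 13 higher and 26 lower ones were free of overlap, against 2.01%, 14.9% and 15.4% of all probe sets. DM and control levels were free of overlap in 3 members with higher DM values (CYBB, GLRX and GCLM) and 12 with lower ones, against 4.93% and 5.87% of all probe sets. Of the 97 members, 38 lay higher and 59 lower in DM dogs, while 51.9% of all probe sets lay higher and 48.1% lower.

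**Figure D1:**
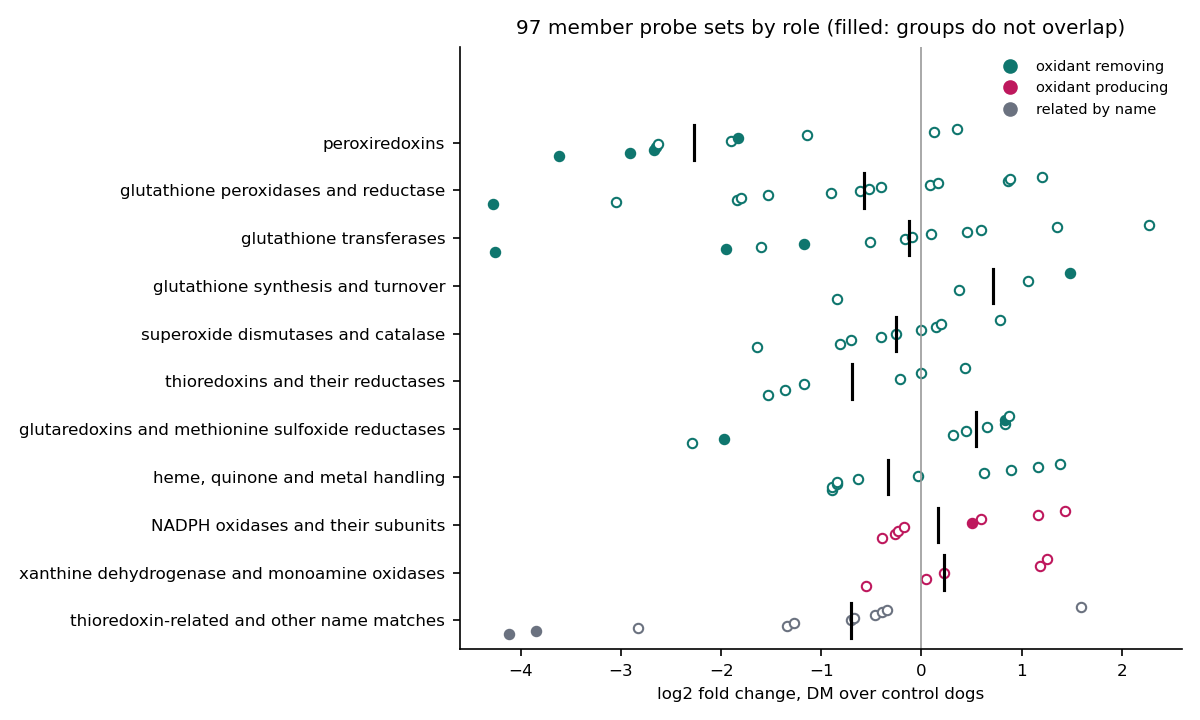
The log2 fold change (DM over control dogs) of each of the 97 member probe sets is plotted on the x axis in a row for its role, with a black bar at the median of the row and filled points where the 4 DM and 4 control dogs do not overlap. The peroxiredoxin row lies mostly to the left with a median of -2.27, and only the glutathione synthesis, glutaredoxin and producing rows have medians above 0.

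The median log2 fold change was -0.40 over the 73 removing probe sets, 0.22 over the 13 producing ones and -0.71 over the 11 taken in by name, beside 0.06 over all probe sets. With each gene counted once, by its brightest probe set, the contrast was smaller. The medians were then -0.22 over 41 removing genes, 0.05 over 9 producing genes and -0.55 over the 4 taken in by name. The medians over probe sets move with the scaling of the arrays. Without quantile normalization they were -0.16 for removing and 0.48 for producing enzymes, beside 0.34 over all probe sets. Median centring and hybridization control scaling shift every fold change from there by the same amount, so they cannot change the order of the classes. With arrays centred on their medians the class medians were -0.75 and -0.11, beside -0.25 over all, and the producing enzymes turned negative. Scaled to the hybridization controls, they were -2.59 and -1.95, beside -2.09 over all, and 96 of the 97 members lay lower in DM dogs, the exception being the second probe set of GSTK1. Every higher value of a member given below is therefore higher relative to the rest of the array, and apart from that probe set its direction turns under this last scaling.

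**Figure D2:**
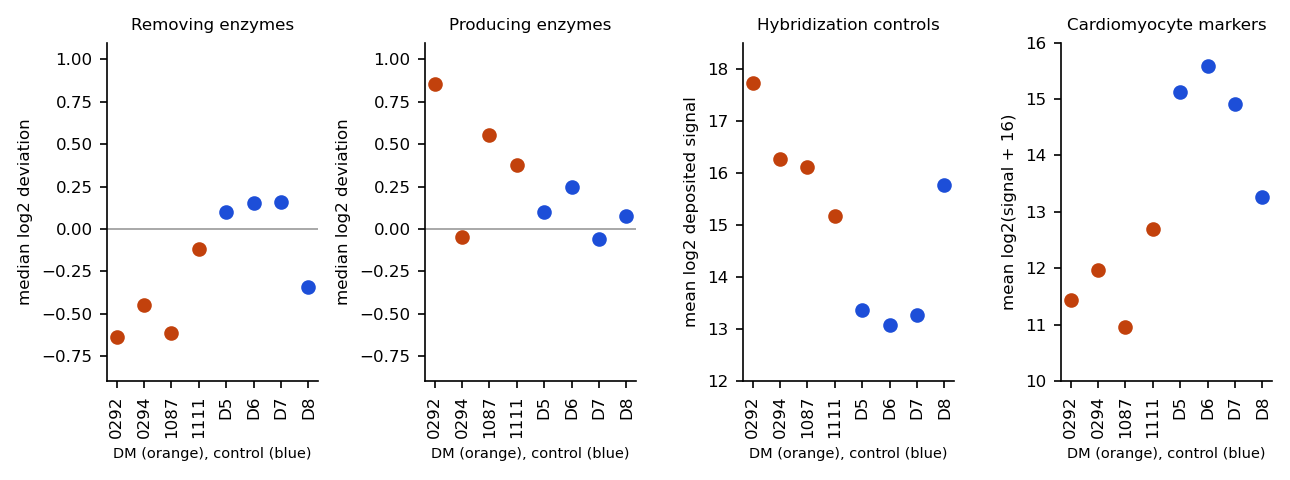
Each panel has a point per dog, DM dogs (orange) left of control dogs (blue), and its y axis gives the median log2 deviation of the removing or the producing probe sets from the control mean, the mean log2 signal of the hybridization controls or the mean log2 level of the cardiomyocyte genes. D8 stands on the DM side of the other control dogs in the removing enzymes, at -0.34, in the hybridization controls, at 15.77, and in the cardiomyocyte genes.

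Within dogs, the median deviation of the removing enzymes from the control mean was -0.64, -0.45, -0.61 and -0.12 in DM dogs, against 0.10, 0.15, 0.16 and -0.34 in control dogs. D8 therefore fell between 1111 and the other DM dogs. For the producing enzymes the medians were 0.85, -0.05, 0.56 and 0.38 in DM dogs and 0.10, 0.25, -0.06 and 0.08 in control dogs. D8 was the lowest control dog in 41 of the 73 removing probe sets, where over all probe sets it was the lowest in 34.8%. The median SD of a member was 1.26 in DM dogs and 0.70 in control dogs, or 0.26 in control dogs without D8. Over all probe sets these were 1.23, 0.70 and 0.39.

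Peroxiredoxins, which reduce peroxides through a reactive cysteine, had lower DM values in 8 of their 10 probe sets, with a median log2 fold change of -2.27 that stayed negative under every scaling. PRDX5, found in mitochondria and peroxisomes, had levels of 11.71, 11.12, 9.83 and 12.17 in DM dogs, against 14.16, 14.46, 14.64 and 13.22 in control dogs. All DM dogs lay below all control dogs, and D8 was again the control nearest to them. The group means were 11.21 ± 1.01 in DM dogs and 14.12 ± 0.63 in control dogs (n = 4 each, ± SD), and the log2 fold change was -2.91 (SE 0.66, limma adjusted p = 0.0816). The second PRDX5 probe set gave -3.62 (SE 0.71, limma adjusted p = 0.0613), with 5.41, 6.08, 5.07 and 7.92 in DM dogs against 9.93, 10.30, 9.85 and 8.89 in control dogs. Both probe sets met the criteria of the methods.

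PRDX3, the peroxiredoxin of the mitochondrial matrix, had levels of 7.59, 10.55, 10.45 and 11.63 in DM dogs and 12.75, 12.65, 12.60 and 12.89 in control dogs. The groups did not overlap, and the control dogs lay within a narrow band while 0292 stood far below the other DM dogs. The log2 fold change was -2.67 (SE 0.79, limma adjusted p = 0.127), from 10.05 ± 1.73 in DM dogs and 12.72 ± 0.13 in control dogs (SD, n = 4 each), and -1.91 without 0292.

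PRDX6, which uses glutathione rather than thioredoxin, had levels of 12.07, 11.25, 11.66 and 13.14 in DM dogs and 13.95, 14.12, 14.03 and 13.35 in control dogs on its brightest probe set. These groups did not overlap either, by the gap between 1111 and D8, and the log2 fold change was -1.83 (SE 0.60, limma adjusted p = 0.162). A second PRDX6 probe set without overlap gave -2.65 (limma adjusted p = 0.0983), and the other two gave -1.14 and 0.12 with overlapping dogs. The cytosolic PRDX1 and PRDX2 had log2 fold changes of -2.63 and -1.90 with overlap at D8, and PRDX4 of the endoplasmic reticulum 0.36.

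**Figure D3:**
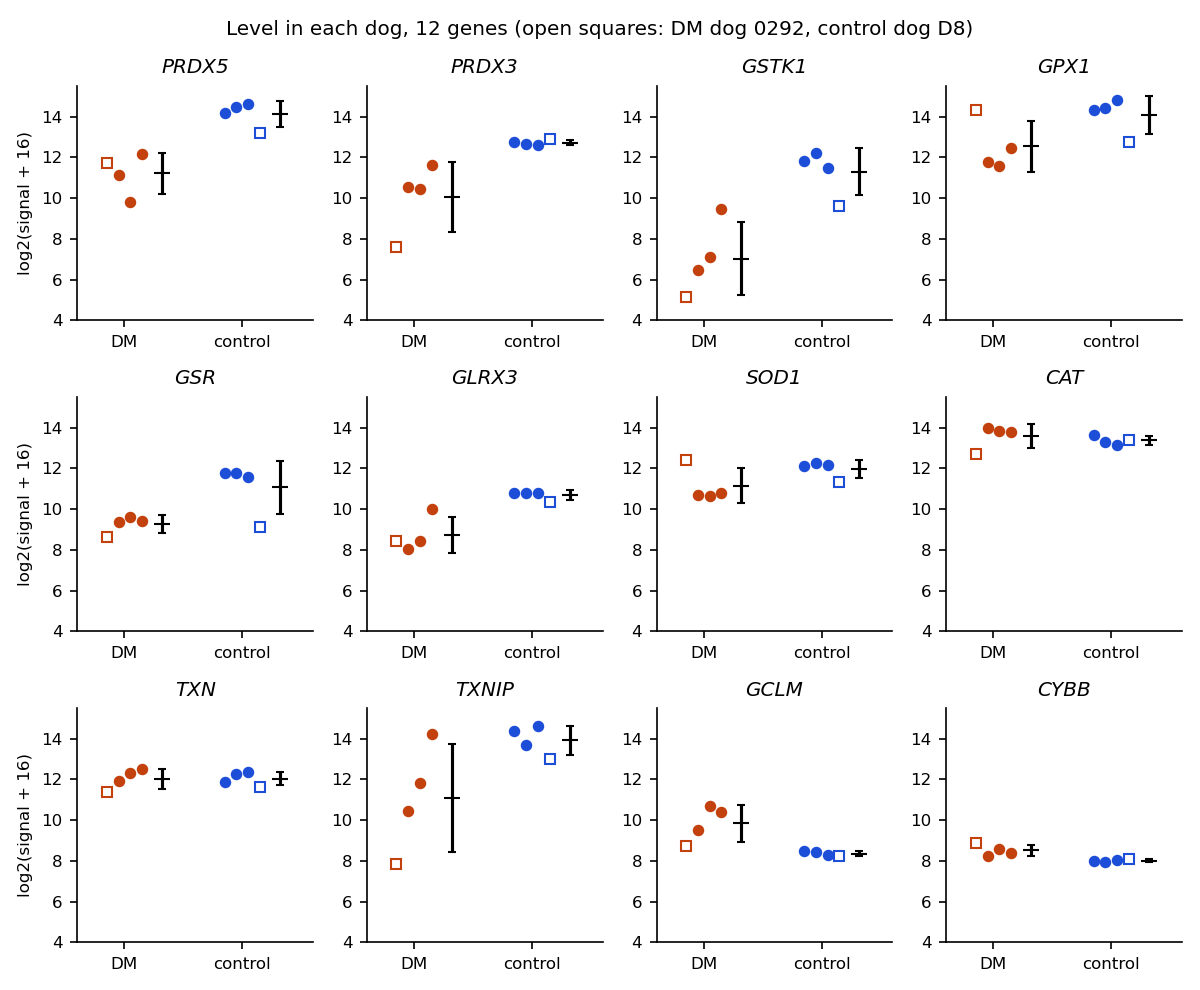
Log2 levels (y axis) of 12 of the named genes are plotted by dog, DM dogs on the left and control dogs on the right of each panel, with a dash at the group mean, an error bar of 1 SD (n = 4) and open squares for DM dog 0292 and control dog D8. The PRDX5, PRDX3, GSTK1 and GLRX3 points of the DM dogs lie below those of the control dogs, GCLM and CYBB lie above, and SOD1, CAT and TXN overlap.

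The glutathione peroxidases and glutathione reductase had lower DM values in 9 of 14 probe sets, with a median log2 fold change of -0.57. GPX1, the main cytosolic and mitochondrial glutathione peroxidase, had levels of 14.30, 11.78, 11.59 and 12.48 in DM dogs and 14.33, 14.43, 14.80 and 12.73 in control dogs. Dog 0292 lay among the control dogs and D8 near the remaining DM dogs, so the groups overlapped. The log2 fold change was -1.54 (SE 0.74, limma adjusted p = 0.315), and without D8 and 0292 it was -2.51 (limma adjusted p = 0.0367, with 0.0061 to 0.565 over all alternatives). A dimmer GPX1 probe set separated the groups, with 5.54, 8.25, 4.89 and 4.94 in DM dogs against 10.69, 10.93, 10.87 and 8.26 in control dogs, by a margin that 0294 and D8 nearly closed. Its log2 fold change was -4.28 (SE 0.87, limma adjusted p = 0.0646), and the 3 remaining GPX1 probe sets gave -0.91, -0.40 and 0.17.

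GSR, the glutathione reductase that restores reduced glutathione, had levels of 8.65, 9.37, 9.62 and 9.42 in DM dogs and 11.78, 11.77, 11.58 and 9.13 in control dogs. D5, D6 and D7 lay far above the highest DM dog, and D8 lay within the DM dogs. Between the group means the log2 fold change was -1.80 (SE 0.70, limma adjusted p = 0.221), and the second GSR probe set repeated the pattern at -3.05 (SE 0.87, limma adjusted p = 0.12), with D8 at 8.85 and the other control dogs at 11.45 to 11.70. Without D8 and 0292 the first gave -2.40 (limma adjusted p = 0.0323, with 0.00306 to 0.498 over all alternatives). GPX3, the secreted plasma peroxidase, had probe sets at -1.84, -0.61, 0.86 and 1.20, and GPX2, GPX5 and GPX8 gave -0.52, 0.88 and 0.08.

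Glutathione transferases join glutathione to reactive products, and their probe sets divided into 5 with higher and 7 with lower DM values (median log2 fold change -0.13, which became 0.32 without quantile normalization). Read from the brightest probe set, each of the 6 genes was lower, with a median of -1.39. GSTK1, a transferase of mitochondria and peroxisomes, had levels of 5.13, 6.45, 7.12 and 9.44 in DM dogs and 11.80, 12.23, 11.50 and 9.62 in control dogs. The groups did not overlap, though 1111 and D8 nearly met. This came to a log2 fold change of -4.25 (SE 0.89, limma adjusted p = 0.0699). Its second probe set ran the other way, at 2.27 (SE 0.79, limma adjusted p = 0.181), with 7.80, 8.63, 9.19 and 6.84 in DM dogs and 5.58, 4.81, 5.04 and 7.95 in control dogs. The mean of both probe sets gave -0.99.

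GSTA4, which conjugates the lipid peroxidation product 4-hydroxynonenal, had levels of 8.24, 5.96, 9.55 and 9.53 in DM dogs and 10.46, 10.62, 10.46 and 9.55 in control dogs. The groups touched without overlapping, D8 and 1087 being equal to 2 decimals, and the log2 fold change was -1.95 (SE 0.79, limma adjusted p = 0.24), or -1.20 without 0294. GSTO1 was lower without overlap on its brightest probe set (-1.17, SE 0.66, limma adjusted p = 0.394), while its other probe sets gave -0.51, 0.10, 0.45 and 1.35 with overlap. The membrane-bound MGST2 and MGST1 gave -1.61 and -0.16 with overlap, and the 2 probe sets of GSTO2 -0.09 and 0.59.

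Glutathione synthesis and turnover had higher DM values in 3 of 4 probe sets. GCLM, the regulatory subunit of glutamate-cysteine ligase, had levels of 8.74, 9.51, 10.71 and 10.40 in DM dogs and 8.50, 8.43, 8.30 and 8.22 in control dogs. Every DM dog lay above every control dog, and the control dogs spread little. The means were 9.84 ± 0.89 in DM dogs and 8.36 ± 0.12 in control dogs (n = 4 each, ± SD), and the log2 fold change was 1.48 (SE 0.61, limma adjusted p = 0.245), or -0.56 under the hybridization control scaling. GGT1, a gamma-glutamyltransferase that breaks down extracellular glutathione, gave 1.06 (SE 0.77, limma adjusted p = 0.516), with 4.94, 4.87, 7.99 and 6.57 in DM dogs and 4.58, 4.78, 4.63 and 6.13 in control dogs. These are dim signals, with D8 within the DM dogs, and the log2 fold change was 0.43 without 1087. The 2 probe sets of GSS, glutathione synthetase, gave 0.37 and -0.85.

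Superoxide dismutases and catalase showed no common direction, with lower DM values in 6 of 9 probe sets. SOD1, the cytosolic copper-zinc enzyme, had levels of 12.41, 10.71, 10.67 and 10.81 in DM dogs and 12.11, 12.26, 12.16 and 11.32 in control dogs. Dog 0292 was the highest of all 8 dogs, and the other 3 DM dogs lay below every control dog. The means were 11.15 ± 0.85 in DM dogs and 11.96 ± 0.43 in control dogs (SD, n = 4 each), and the log2 fold change of -0.81 (SE 0.61, limma adjusted p = 0.536) was within this spread. Without D8 and 0292 it was -1.50.

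SOD2, the manganese enzyme of mitochondria, had levels of 8.36, 11.28, 9.53 and 9.05 in DM dogs and 9.47, 8.86, 9.25 and 10.64 in control dogs. The groups overlapped throughout and their means, 9.55 in DM dogs and 9.56 in control dogs, gave no direction (SE of the difference 0.72, limma adjusted p = 0.999), while its dimmer probe sets gave -0.26 and -0.71. CAT, catalase, had 12.71, 13.98, 13.83 and 13.78 in DM dogs and 13.65, 13.30, 13.14 and 13.41 in control dogs. Apart from 0292, the lowest of all dogs, the DM dogs lay above the control dogs. Its log2 fold change was 0.20 (SE 0.57, limma adjusted p = 0.891), which turned negative with median centring (-0.28), and the other CAT probe sets ranged from -1.64 to 0.78.

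Thioredoxins and their reductases had lower DM values in 5 of 6 probe sets, counting the one of TXN, whose group means hardly differed. TXN, the cytosolic thioredoxin, had levels of 11.38, 11.92, 12.31 and 12.52 in DM dogs and 11.87, 12.26, 12.36 and 11.64 in control dogs. The groups overlapped and had the same mean of 12.03, with an SE of 0.56 for the difference. The mitochondrial TXN2 had 10.20, 6.04, 6.47 and 8.24 in DM dogs and 8.97, 9.24, 9.17 and 9.01 in control dogs. Here 0292 lay above every control dog and the other DM dogs below, for a log2 fold change of -1.36 (SE 0.83, limma adjusted p = 0.433), or -2.21 without 0292 and -0.80 without 0294. TXNRD2, the mitochondrial thioredoxin reductase, had 8.14, 6.70, 4.78 and 8.75 in DM dogs and 8.11, 8.48, 8.54 and 7.92 in control dogs (log2 fold change -1.17, SE 0.80, limma adjusted p = 0.489). Its control dogs lay inside the wider range of the DM dogs, and the log2 fold change was -0.40 without 1087. The cytosolic TXNRD1 gave -0.22 and 0.44.

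Glutaredoxins, which reduce glutathionylated proteins, and methionine sulfoxide reductases, which repair oxidized methionine, had higher DM values in 6 of 8 probe sets, or 4 of 8 with median centring. The members with the smallest p were lower ones. GLRX3, a monothiol glutaredoxin that carries iron-sulfur clusters, had levels of 8.43, 8.03, 8.42 and 10.01 in DM dogs and 10.80, 10.81, 10.80 and 10.35 in control dogs. The groups did not overlap, and D5, D6 and D7 were nearly equal. The means were 8.72 ± 0.88 in DM dogs and 10.69 ± 0.22 in control dogs (n = 4 each, ± SD), and the log2 fold change was -1.97 (SE 0.61, limma adjusted p = 0.139). MSRB1, a selenoprotein, had 5.69, 7.98, 8.99 and 7.83 in DM dogs and 10.53, 10.61, 10.31 and 8.23 in control dogs, where D8 alone reached the DM dogs (log2 fold change -2.29, SE 0.80, limma adjusted p = 0.181).

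In the other direction, GLRX, the cytosolic glutaredoxin 1, had 13.04, 12.42, 12.91 and 12.71 in DM dogs and 11.59, 11.80, 12.02 and 12.32 in control dogs. The groups did not overlap, with D8 the control dog nearest to 0294. As a log2 fold change this was 0.84 (SE 0.54, limma adjusted p = 0.466). The other members with higher DM values overlapped between groups: GLRX2 (0.65 and 0.83), GLRX5 (0.87), MSRA (0.45) and MSRB2 (0.32).

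The genes of heme, quinone and metal handling had higher DM values in 4 of 10 probe sets, with a median log2 fold change of -0.34, or 0.30 over the brightest probe sets of the 6 genes. NQO1, a quinone reductase, had levels of 8.20, 11.60, 10.82 and 11.73 in DM dogs and 11.63, 11.72, 11.63 and 10.75 in control dogs. Dog 0292 lay below all other dogs, and the log2 fold change was -0.85 (SE 0.78, limma adjusted p = 0.618), with -0.84 on the second probe set. Without 0292 it was -0.05. NQO2, its relative, had 10.25, 5.07, 4.63 and 8.42 in DM dogs and 5.81, 5.67, 6.23 and 5.12 in control dogs. The DM dogs fell on both sides of the control dogs, and the log2 fold change of 1.39 had an SE of 1.06 (limma adjusted p = 0.542) and was 0.30 without 0292. The metallothioneins MT1E and MT2A, which bind metals, ranged from -0.89 to 1.17 over 5 probe sets, and the ferritin heavy chain FTH1 and the constitutive heme oxygenase HMOX2 gave -0.04 and -0.64.

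Among the producing enzymes, the NADPH oxidases and their subunits had higher DM values in 4 of 8 probe sets, or 7 of 8 without quantile normalization. CYBB, the catalytic subunit of the phagocyte NADPH oxidase, had levels of 8.87, 8.25, 8.57 and 8.40 in DM dogs and 7.98, 7.96, 8.04 and 8.10 in control dogs. All DM dogs lay above all control dogs by a small step. The means were 8.52 ± 0.27 in DM dogs and 8.02 ± 0.06 in control dogs (n = 4 each, ± SD), and the log2 fold change was 0.51 (SE 0.53, limma adjusted p = 0.668), or -1.43 under the hybridization control scaling. The methods' t-test, which takes the spread of CYBB alone, gave a nominal p of 0.0102 (0.186 after Benjamini-Hochberg adjustment) for this 1.42-fold change. Phagocytes carry CYBB, and of the 11 measured macrophage genes 7 had higher DM values, with log2 fold changes of 0.33 to 1.62. The 4 lower genes were CD14, CSF1R, C1QC and TYROBP (-1.10, -1.20, -1.07 and -0.57). Only CD68 was higher without overlap (1.47, limma adjusted p = 0.233), against 4.93% of all probe sets. The part of phagocytes in the CYBB values was not tested.

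DUOXA1, the maturation factor of the dual oxidase DUOX1, had levels of 9.45, 4.99, 5.40 and 8.03 in DM dogs and 5.10, 4.68, 4.94 and 7.42 in control dogs. The DM dogs 0292 and 1111 and the control dog D8 stood above the rest (log2 fold change 1.43, SE 0.99, limma adjusted p = 0.494, or 0.59 as a log2 fold change without 0292). The small GTPases RAC1 and RAC2, which join the active oxidase, gave -0.27 and 0.59, and the dual oxidases DUOX1 and DUOX2 ranged from -0.39 to 1.16 over 4 dim probe sets.

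XDH, xanthine dehydrogenase, a source of superoxide once converted to the oxidase, had levels of 8.09, 8.94, 9.83 and 10.89 in DM dogs and 9.81, 10.73, 9.34 and 10.10 in control dogs. The groups overlapped, with the lowest and the highest level both in DM dogs (log2 fold change -0.56, SE 0.69, limma adjusted p = 0.723). MAOA, which makes hydrogen peroxide while it oxidizes amines at the mitochondrial surface, had 9.97, 7.87, 5.86 and 5.05 in DM dogs and 7.54, 7.60, 5.86 and 6.86 in control dogs. Its log2 fold change of 0.22 (SE 0.95, limma adjusted p = 0.928) turned to -0.11 with median centring, its other probe sets gave 1.18 and 1.26, and MAOB gave 0.05.

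Of the proteins taken in by name, 10 of 11 probe sets had lower DM values, under every scaling at least as many. TXNIP, the inhibitor of thioredoxin whose transcription is known to follow glucose, had levels of 7.84, 10.46, 11.80 and 14.23 in DM dogs and 14.36, 13.67, 14.60 and 13.02 in control dogs. Dogs 0292, 0294 and 1087 lay below every control dog and 1111 lay among them. The means were 11.08 ± 2.67 in DM dogs and 13.91 ± 0.71 in control dogs (n = 4 each, ± SD), and the log2 fold change was -2.83 (SE 1.07, limma adjusted p = 0.211), or -1.77 without 0292, and the second probe set gave -1.34.

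TXNL4A carries a thioredoxin fold but is known as a spliceosome protein. Its brightest probe set had 10.61, 12.23, 12.27 and 12.13 in DM dogs and 12.37, 12.07, 12.58 and 13.05 in control dogs, with overlapping groups (log2 fold change -0.71, SE 0.61, limma adjusted p = 0.592). Another had 7.09, 6.38, 9.13 and 10.19 in DM dogs against 12.03, 12.08, 12.06 and 11.996 in control dogs, where the control dogs were nearly equal and every DM dog lay below them (-3.85, SE 0.79, limma adjusted p = 0.0671). The next gave -4.12 (limma adjusted p = 0.0881), and the remaining probe sets gave 1.59 and -0.46.

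**Figure D4:**
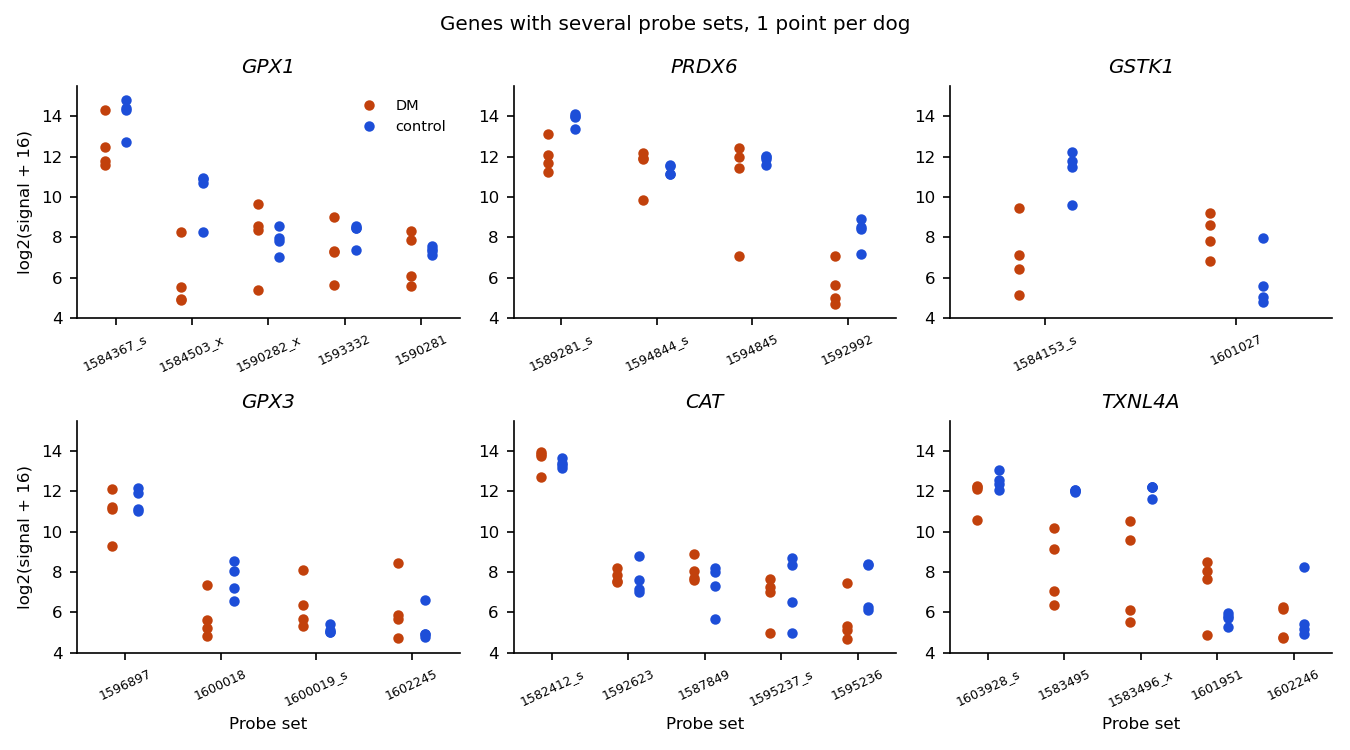
Log2 levels (y axis) of each dog are plotted for every probe set (x axis, brightest first) of GPX1, PRDX6, GSTK1, GPX3, CAT and TXNL4A, with DM dogs in orange on the left and control dogs in blue on the right of each pair. The 2 GSTK1 probe sets run in opposite directions (log2 fold changes of -4.25 and 2.27), and the TXNL4A probe sets range from -4.12 to 1.59.

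Probe sets of one gene often differed. Of the 24 genes with more than 1 probe set, the direction was the same in 11 and mixed in 13. PRDX5, GSR, TXN2, TXNIP and NQO1 were lower on each of their probe sets, and GLRX2 and MAOA higher. In GSTK1 the range ran from -4.25 to 2.27, and in TXNL4A from -4.12 to 1.59. When each of the 54 genes was counted once, by its brightest probe set, 4 met the criteria of the methods with lower values and 7 were lower without overlap. Over all probe sets these shares were 2.52% and 5.87%.

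**Figure D5:**
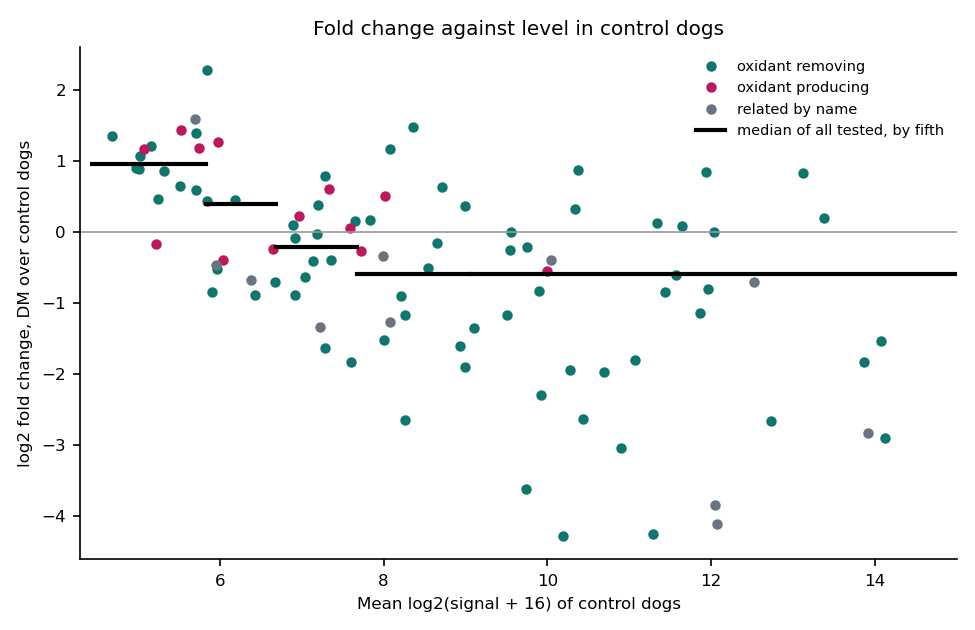
The log2 fold change (DM over control dogs, y axis) is plotted against the mean log2 level in control dogs (x axis) for the 97 members, with black bars at the median of all probe sets in each of 5 equal bins of the control level and colours for the classes. The bars step down from 0.96 in the dimmest bin to -0.59 in the brightest, and 30 of the 37 members in the brightest bin lie below 0.

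The fold change moved with the control level over the whole array, and the classes differ in level. The control mean that sets this level is also subtracted in each fold change. Spread among the control dogs therefore builds some such relation in. The median control level lay at percentile 74.1 of all probe sets for the removing and 92.1 for the peroxiredoxin probe sets. For the producing ones it lay at 39.3, and the median fold changes of these groups run the same way as the array-wide relation. The probe sets taken in by name, at percentile 67.0 with a median log2 fold change of -0.71, did not follow that order. Nor did the glutaredoxins and methionine sulfoxide reductases, at percentile 89.8 with 0.55. With all probe sets divided into 5 equal bins of control level, in the dimmest bin the median log2 fold change was 0.96 over all probe sets and 1.06 over 15 members, of which 14 lay higher. In the brightest bin it was -0.59 over all probe sets and -1.14 over 37 members, of which 30 lay lower. In the 3 bins between them, from dim to bright, the median was 0.39, -0.22 and -0.60 over all probe sets and -0.43, -0.06 and -0.34 over the members. How far this relation accounts for the class medians or for the lower values of single bright members was not tested.

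Other genes of the same pathways were taken from lists of related genes. The NADPH supply, which feeds both the glutathione and the thioredoxin reductases, had 7 of 13 listed genes measured, 1 higher and 6 lower in DM dogs (median log2 fold change -0.32), and none passed the adjusted p or differed without overlap (limma; 0 at an unadjusted p under 0.05). NNT, the mitochondrial transhydrogenase, had 4.88, 12.89, 12.73 and 12.73 in DM dogs and 12.20, 11.72, 11.74 and 12.81 in control dogs. Its log2 fold change of -1.31 (SE 1.44, limma adjusted p = 0.682) rested on 0292, the only DM dog below D5, D6 and D7. PGD, of the pentose phosphate pathway, had 9.49, 7.08, 9.99 and 10.45 in DM dogs and 10.92, 11.05, 11.08 and 7.04 in control dogs, where D8 was the lowest of all (-0.77, SE 0.99, limma adjusted p = 0.735).

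Of 10 regulators of NRF2, the transcription factor that drives many antioxidant genes, 4 were measured, 1 higher and 3 lower. RBX1, a RING subunit of the ligase that degrades NRF2, had 10.77, 9.46, 9.25 and 10.71 in DM dogs and 11.70, 11.73, 11.91 and 11.08 in control dogs, without overlap (log2 fold change -1.56, SE 0.60, limma adjusted p = 0.222), and its scaffold CUL3 gave 0.56 (SE 0.63, limma adjusted p = 0.689), with 9.31, 11.37, 11.05 and 11.16 in DM dogs and 10.06, 10.07, 9.76 and 10.74 in control dogs.

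Of 30 other redox and detoxifying genes, 17 were measured, 4 higher and 13 lower (median log2 fold change -0.76). Myoglobin, MB, the oxygen-binding protein of heart muscle that also takes up nitric oxide and peroxide, had 7.43, 9.80, 8.0002 and 10.23 in DM dogs and 14.44, 15.41, 13.78 and 12.07 in control dogs. No DM dog reached the lowest control dog, D8, and the log2 fold change of -5.06 (SE 0.84, limma adjusted p = 0.0608) stood beside the lower cardiomyocyte genes given above, of whose list MB is a member. AKR1B1, the aldose reductase that spends NADPH on glucose, gave -1.82 without overlap (SE 0.66, limma adjusted p = 0.193), with 7.50, 10.08, 8.85 and 9.42 in DM dogs against 10.50, 11.36, 10.66 and 10.61 in control dogs. SELENOP was higher without overlap (1.07, SE 0.55, limma adjusted p = 0.347) and met the criteria of the methods. Of the 17 genes, 1 was higher and 4 were lower without overlap, against 4.93% and 5.87% of all probe sets.

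Of 22 other oxidant producers, 9 were measured, 6 higher and 3 lower (median log2 fold change 0.32). ALOX5, the leukocyte lipoxygenase, had 8.46, 8.49, 9.87 and 8.91 in DM dogs and 6.51, 7.99, 8.35 and 8.37 in control dogs, without overlap (log2 fold change 1.12, SE 0.64, limma adjusted p = 0.401). AOC3, a vascular amine oxidase, gave -0.98 (SE 0.57, limma adjusted p = 0.41), with 6.65, 7.07, 6.55 and 5.94 in DM dogs and 6.97, 8.14, 7.36 and 7.65 in control dogs. None of the genes of these lists passed the adjusted p of limma. At an unadjusted p under 0.05 limma had 1 regulator of NRF2 and 3 of the other redox genes lower and none higher. All probe sets gave 8.91% lower and 7.8% higher at that p.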

How the data were processed

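The authors deposited one MAS 5.0 signal intensity per probe set and dog, each array scaled to a trimmed mean of 500. The methods name RMA, which these values are not. The intensities were quantile normalized over 23913 probe sets, 16 was added, and log2 was taken. The 77 control probe sets were then left out. Groups were tested with limma 3.58.1 (R 4.3.3; lmFit, eBayes) with Benjamini-Hochberg adjustment over 23836 probe sets, and with the methods' t-test (equal variances) on the same values. The limma step was tested on simulated log2 values: of changes of 1, 2, 3 and 4 log2 units, limma called 0%, 8%, 36% and 76%. The simulated noise was independent and normal, with the same SD in both groups. Normalization, the offset, the larger spread of the DM dogs and deviating arrays were not simulated, so these rates may not hold for the real arrays.

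Gene names are those of the platform annotation, and 94 of the 97 probe sets matched a RefSeq gene. The members, roles and lists were chosen with earlier results of these data known. Named with every dog were the 2 genes of each role with the smallest limma p, genes the study discusses, and SOD2, CAT and TXN (24 genes), with the 2 genes of smallest limma p in each related list. GLRX, CD68, SELENOP and second probe sets were added after their values were seen. Probe sets may share probes with related transcripts, which leaves their values uncertain. The p-values rest on the spread between these dogs, and the number of arrays limits the precision. In limma each variance is also drawn toward a value fitted over all probe sets, and the SEs given are these moderated ones. Where the dogs of each group lie close together, as for CYBB, the limma SE is larger than their own spread gives. Where they lie far apart, as for TXNIP, it is smaller. No array batch was given in the sources used here. The sample numbers of the control and the DM arrays fall in separate ranges, and whether these mark batches was not stated. A batch that followed the groups could not be told apart from them.

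Alternatives were no quantile normalization, median centring, hybridization control scaling, offsets of 0 and 64, leaving out probe sets with a mean signal under 100, an intensity trend, gene means or 1 probe set per gene, and leaving out dogs.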

Additional observations from a re-analysis of the deposited data

Results flagged for a closer look

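In 11 of 48 groups of 4 dogs (24 named genes in 2 groups), 1 dog lay so far from the others that its gap exceeded Dixon's 95% critical value, where chance flags about 1 in 20 groups. All 11 involved DM dog 0292 or control dog D8, the dogs whose arrays correlate least with their own group, and the genes share those arrays. The cause was not tested.

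Among DM dogs, 0292 had 12.71 for CAT where the others had 13.78 to 13.98, 12.41 for SOD1 where the others had 10.67 to 10.81, and 10.61 for TXNL4A where the others had 12.13 to 12.27. For SOD1 this is the dog that closes the gap to the control group.

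Among control dogs, D8 was low in 6 genes. It had 10.35 for GLRX3 (others 10.80 to 10.81), 9.13 for GSR (others 11.58 to 11.78) and 9.55 for GSTA4 (others 10.46 to 10.62). It also had 8.23 for MSRB1 (others 10.31 to 10.61), 10.75 for NQO1 (others 11.63 to 11.72) and 11.32 for SOD1 (others 12.11 to 12.26). In each of these 6 genes D8 lay toward the DM dogs' mean. D8 was high in 2 dim genes, with 7.42 for DUOXA1 (others 4.68 to 5.10) and 6.13 for GGT1 (others 4.58 to 4.78).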

How the results depend on the processing

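No paired analysis was possible because the labels give each dog its own name and no number shared between DM and control dogs. Leaving out each dog in turn, lower members past the adjusted p of limma numbered 0 to 6 (6 without 1111, 3 without D8, 0 otherwise). By the criteria of the methods, 0 to 2 were higher and 2 to 10 lower (2 without D5, D6 or D7, 3 without 0294, 4 without 1087, 5 without 0292, 10 without 1111). Over all probe sets the same criteria gave 329 to 729 of 23836 higher. They gave 1.17% to 4.14% lower, with the highest share without 1111. Without overlap were 3 to 8 higher (8 without 1111 or D8) and 12 to 21 lower (21 without D8). The shares over all probe sets were 8.5% higher without 1111, and 9.24% higher and 11.7% lower without D8. The median log2 fold change was -0.60 to -0.20 for removing and -0.05 to 0.50 for producing enzymes, which were lowest without 0292. Leaving out both D8 and 0292 was chosen after seeing the data: 7 lower members passed the adjusted p, 3 higher met the criteria of the methods, and 13 higher and 26 lower did not overlap. Over all probe sets 2.01% passed lower, 1093 of 23836 met the criteria higher, and 14.9% higher and 15.4% lower did not overlap.

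Without quantile normalization 2 higher members met the criteria of the methods, against 636 of all 23836 probe sets, and the removing median was -0.16. With median centring 6 lower members passed the adjusted p, 1 higher and 6 lower did not overlap, and the medians were -0.75 (removing) and -0.11 (producing). Over all probe sets 0.927% passed lower with this centring, and 2.58% higher and 5.78% lower did not overlap. With hybridization control scaling 50 lower members passed, against 38.1% of all probe sets, 0 higher were free of overlap, and the medians were -2.59 and -1.95. By construction this scaling carries the control probe difference into every gene. An offset of 64 gave 6 and an intensity trend 9 lower members past the adjusted p. With 1 probe set per gene 4 lower members met the criteria of the methods and 7 were lower without overlap, since fewer probe sets were counted.

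Directions turned in 9 of the 24 named genes. Hybridization control scaling gave -2.12 for CAT, -1.43 for CYBB, -0.79 for DUOXA1, -0.56 for GCLM, -1.02 for GGT1, -1.95 for MAOA and -1.05 for NQO2. Median centring gave -0.28 for CAT and -0.11 for MAOA, and the gene mean -0.18 for CAT. SOD2 was 0.0109 without quantile normalization and 0.0114 with an offset of 64. Without D8 and 0292, MAOA was -0.71, SOD2 0.83 and TXN 0.0879. Leaving out 1 dog gave -0.69 to 0.92 for MAOA, -0.60 to 0.43 for SOD2 and -0.16 to 0.22 for TXN. The other 15 named genes kept their direction under each alternative run. Adjusted p-values over the alternatives ran from 0.0004537 to 0.304 for PRDX5 and from 0.0001 to 0.297 for GSTK1. GGT1 was not tested where dim probe sets were left out.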
